A study of Danio rerio with 12 samples.

Results

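Heat shock proteins and molecular chaperones were represented by 91 probe sets of 79 genes, out of 15502 probe sets on the zebrafish array. They were chosen by gene symbol: those starting with hsp, hsf, dnaj, bag, pdia or fkbp and those of the cytosolic chaperonin subunits cct2 to cct8, leaving out fkbp5, a glucocorticoid target, and hspg2, a matrix proteoglycan. The rule itself uses symbols and no measured value, but it was set with earlier results of these data known. The symbol rule also took in hsf2bp, which is named for binding a heat shock factor and is not a chaperone. RNA came from whole embryos at 80 hours post fertilization of 4 genotypes, with 3 arrays for each genotype. BRAF;p53 embryos carried tg(mitf-BRAFV600E) in a p53-M214K -/- background, and BRAF embryos carried the same transgene as a stable homozygous allele with p53 intact. The p53 embryos were p53-M214K -/- without the transgene, and wild-type embryos were of the Tu strain. All embryos came from incrosses of fish of their genotype. An effect of genotype thus cannot be told apart from one of line background or clutch. The term transgene shift below names a contrast only.

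The mitf promoter drives the transgene in pigment cells and their precursors, which are a small part of a whole embryo, so the values are averages over many tissues that do not carry active transgene. In such RNA, fewer cells of a type and less RNA per cell cannot be told apart. The sources used here do not give the number of embryos or clutches behind a sample, and p53 replicates 1 and 2 carry the source names 1a and 1b. A p-value below thus sets a difference against the spread between such samples only, part of which may be technical. The transcript of the mutated p53 gene was not analysed here, so the labels were not checked against it.

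Chaperones bind unfolded or newly made proteins and help them fold, assemble or be destroyed. Hsp70 proteins work in cycles that J proteins (the DNAJ family) start and that exchange factors such as BAG proteins and HspBP1 end, while Hsp90 finishes the folding of kinases, receptors and muscle myosin. Heat shock factors switch on many of these genes when unfolded proteins build up in the cytosol, and a separate unfolded protein response does so for the endoplasmic reticulum (ER). Mutant BRAF and mutant p53 proteins are both known in human cells as clients of Hsp90.

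Each value below is the log2 expression of a probe set relative to about its median over the 12 arrays. A value of 0 therefore means that middle level and not absence, and levels of different genes cannot be set against each other. Chaperone values lay between -1.77 and 1.82. BRAF replicate 1 and p53 replicate 3 stood apart from the other arrays of their genotype. Over the 91 chaperone probe sets, BRAF replicate 1 correlated at 0.505 and 0.487 with the other BRAF arrays, which correlated at 0.877 with each other. For p53 replicate 3 the correlations were 0.319 and 0.307, against 0.642 between p53 replicates 1 and 2. BRAF;p53 arrays correlated at 0.647 to 0.831. Wild-type replicate 2 also correlated less over the chaperones, at 0.546 and 0.418 with the other wild-type arrays, which correlated at 0.744. Over all probe sets its correlations were 0.671 and 0.685, against 0.774.

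Most chaperone genes showed small differences in the 5 comparisons between genotypes that were made, which leave out BRAF against p53. The largest difference of a probe set over these 5 had a median of 0.286 on the log2 scale. For 71 of the 91 it stayed below 0.5, and for 5 it reached 1. The same values over all probe sets were not computed. In the limma fit, with p-values adjusted over all 15502 probe sets and a threshold of 0.05, 16 probe sets of 13 genes passed at least 1 of 7 tests and 75 passed none. That is 17.6% of the 91, against 11.7% of all probe sets. The 7 tests were 5 comparisons between genotypes, the BRAF by p53 interaction (whether the transgene shift differs with and without p53 function) and an F test for any difference.

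In BRAF embryos 11 probe sets passed against wild type, 3 higher and 8 lower. That is 12.1% of the 91 against 6.41% of all probe sets, of which 3.19% were higher and 3.22% lower. In BRAF;p53 embryos 3 passed against wild type, all lower, or 3.3% against 1.95% of all probe sets (0.974% lower). In p53 embryos 4 passed against wild type, 2 higher and 2 lower, or 4.4% against 1.83% (0.755% higher and 1.08% lower). Between BRAF;p53 and p53 embryos 4 passed, 1 higher and 3 lower, or 4.4% against 2.94% (1.5% higher and 1.44% lower). Between BRAF;p53 and BRAF embryos 6 passed, 2 higher and 4 lower, or 6.59% against 4.5% (2.03% higher and 2.48% lower). The interaction passed for 7, 2 positive and 5 negative, or 7.69% against 3.21% (1.61% positive and 1.6% negative), and the F test for 14, or 15.4% against 9.43%. No test of the chaperones as a set was made, and these comparisons share arrays.

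The middle of the distribution moved little. The median difference of the 91 probe sets was -0.03 for BRAF;p53 against wild type (-0.01 over all probe sets), 0.05 for BRAF against wild type (0.05 over all) and -0.04 for p53 against wild type (0.00 over all). It was 0.02 for BRAF;p53 against p53 (-0.01 over all) and -0.08 for BRAF;p53 against BRAF (-0.06 over all). In the same order, 37.4%, 58.2%, 37.4%, 52.7% and 30.8% of the 91 had a positive difference. Over all probe sets these shares were 46.1%, 57.9%, 50.3%, 47.5% and 39.6%. Arrays of BRAF;p53 and wild type did not overlap for 20.9% of the chaperone probe sets, against 25.3% of all probe sets. For BRAF and wild type the share was 25.3% against 28.4%, and for p53 and wild type 20.9% against 19.1%. It was 28.6% against 21.9% between BRAF;p53 and p53, and 25.3% against 29% between BRAF;p53 and BRAF.

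Several of these counts moved by over 1.5 times when 1 array was left out. Against wild type, the BRAF;p53 count was 1 without BRAF;p53 replicate 1 (1.1%, with 1.05% of all probe sets) or wild-type replicate 2 (1.1%, with 1.72% of all). The BRAF count was 7 without BRAF replicate 2, BRAF replicate 3 or wild-type replicate 2 (7.69%, with 4.78%, 4.82% and 3.84% of all). Against p53, the BRAF;p53 count was 2 without BRAF;p53 replicate 1 (2.2%, with 1.15% of all) and 7 without BRAF replicate 1 (7.69%, with 4.44% of all). Against BRAF, it was 1 without BRAF;p53 replicate 1 or 3 (1.1%, below the 1.95% and 3.31% of all). It was 3 without BRAF;p53 replicate 2 (3.3%, with 2.06% of all). The interaction count was 3 without p53 replicate 1, BRAF;p53 replicate 2 or wild-type replicate 2 (3.3%, with 2.1%, 1.88% and 1.96% of all). It was 4 without BRAF replicate 2, BRAF;p53 replicate 1, p53 replicate 2, or wild-type replicate 1 or 3 (4.4%, with 1.83% to 2.41% of all). With BRAF replicate 1 and p53 replicate 3 both left out, a choice made after seeing the data, the counts against wild type were 8 for BRAF;p53 (8.79%, with 5.91% of all probe sets), 15 for BRAF (16.5%, with 11.4% of all) and 6 for p53 (6.59%, with 4.44% of all). They were 9 for BRAF;p53 against p53 (9.89%, with 7.92% of all), 7 against BRAF (7.69%, with 7.5% of all) and 17 for the interaction (18.7%, with 9.48% of all). The calls over all probe sets thus also increased. When only the genotypes compared were fitted, 6 passed in BRAF;p53 embryos against wild type (6.59%, with 5.39% of all) and 4 in BRAF embryos against wild type (4.4%, with 3.86% of all), so which genotype had more calls depended on the fit.

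**Figure D1:**
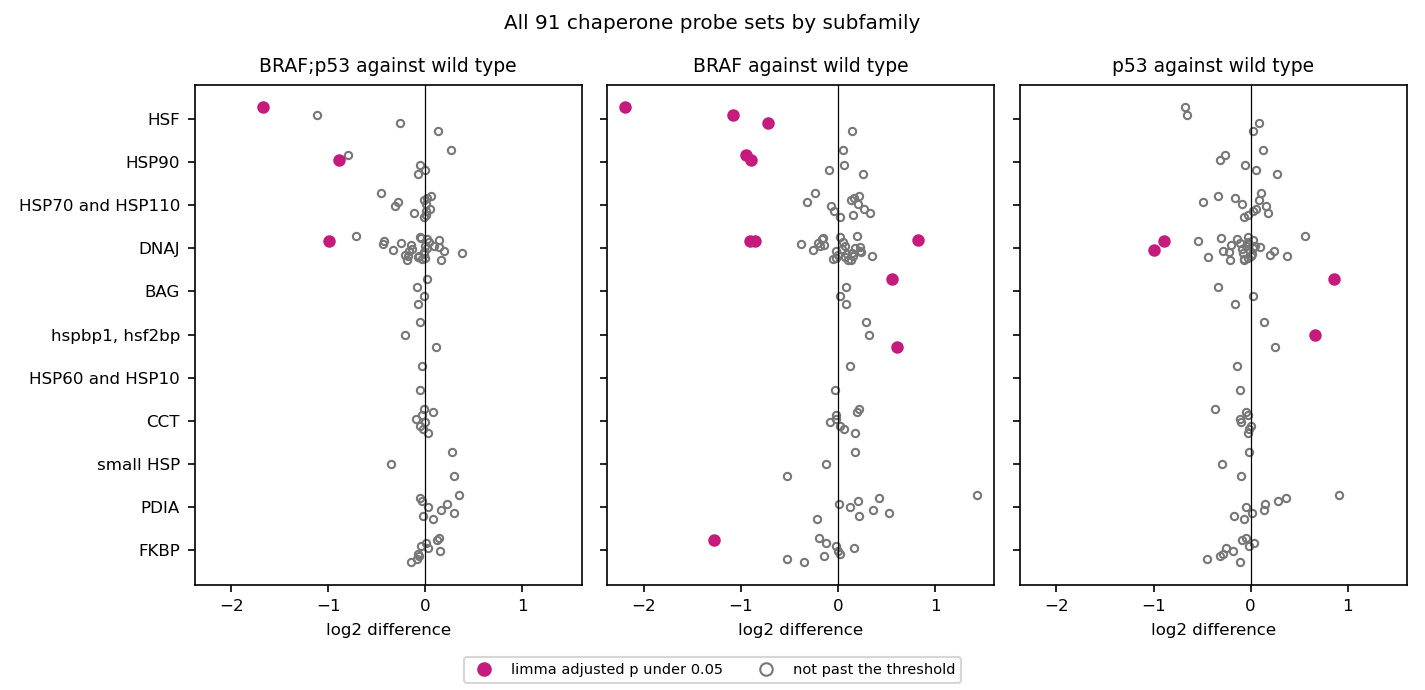
Log2 difference of each of the 91 chaperone probe sets, by subfamily, for BRAF;p53, BRAF and p53 embryos against wild type. Each point is 1 probe set and filled points passed the limma test at an adjusted p of 0.05. Heat shock factor and HSP90 points reach -2.20 and -0.95 in BRAF embryos, while the 8 CCT points stay between -0.36 and 0.21 in all 3 panels.

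The heat shock factors gave the largest difference of any chaperone gene. The gene hsf1 encodes the transcription factor that turns on heat shock genes, and its probe set 1 read -0.50, -0.02 and -1.30 on BRAF;p53 arrays, -1.22, -1.22 and -0.95 on BRAF arrays, 0.85, 0.30 and 0.02 on p53 arrays, and 0.85, 1.39 and 0.96 on wild-type arrays. All values of the transgenic genotypes were below all p53 and wild-type values. Expression fell by 2.20 ± 0.30 in BRAF embryos against wild type, which is 4.59-fold lower (SE, n = 3 per genotype, limma adjusted p = 0.00136). It fell by 1.67 ± 0.30 in BRAF;p53 embryos against wild type (3.19-fold lower, limma adjusted p = 0.0147). The BRAF call held whichever array was left out, and the other call ended without wild-type replicate 2 or BRAF;p53 replicate 1 (limma adjusted p = 0.0547 and 0.0517). Against p53, they were at -0.997 ± 0.30 with arrays that did not overlap, which missed the threshold (limma adjusted p = 0.115). The transgene shift of hsf1 was not shown to depend on p53 function (95% interval of the interaction 0.271 to 2.129, limma adjusted p = 0.159).

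The other hsf1 probe set read -1.62, -1.62 and -1.77 on BRAF;p53 arrays, -1.50, -1.67 and -1.72 on BRAF arrays, -0.82, -1.29 and -1.52 on p53 arrays, and -0.90, 0.22 and -0.98 on wild-type arrays. Values of both transgenic genotypes were again below those of wild type, where replicate 2 was far above replicates 1 and 3. It fell by 1.08 ± 0.28 in BRAF embryos against wild type (limma adjusted p = 0.043), and only 4 of the 12 fits that left out 1 array kept that call. Without wild-type replicate 2 the difference was -0.69 (limma adjusted p = 0.0629), and without BRAF replicate 3 the adjusted p was 0.109. With the transgene and no p53 function its difference from wild type was -1.12 ± 0.28 (limma adjusted p = 0.0715). This probe set is 1 of 2 chaperone probe sets, with dnajc24, whose values were not centred on the median, by a divisor that is unknown.

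A second factor gene, hsf2, works with Hsf1 and is active in development. It read -0.19, -0.01 and -0.19 on BRAF;p53 arrays, -0.64, -0.28 and -0.85 on BRAF arrays, 0.23, 0.34 and 0.10 on p53 arrays, and 0.18, 0.01 and 0.21 on wild-type arrays. BRAF values were the lowest, with no overlap with any other genotype. It fell by 0.73 ± 0.14 in BRAF embryos against wild type (limma adjusted p = 0.00907), a call that held whichever array was left out. Differences from wild type were -0.26 in BRAF;p53 embryos and 0.08 in p53 embryos, which did not pass (limma adjusted p = 0.473 and 0.849). The remaining factor gene, hsf5, passed no test, and its values ran from -0.10 to 0.25.

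Of the Hsp90 genes, hsp90aa1.2 alone passed a test. It encodes a cytosolic Hsp90 alpha, and its near-identical neighbour hsp90aa1.1 makes the Hsp90 needed for myosin folding in zebrafish muscle, so how far the probe sets tell the pair apart is uncertain. Probe set 2 of hsp90aa1.2 read -0.38, -0.28 and -0.56 on BRAF;p53 arrays, -0.07, -0.73 and -0.40 on BRAF arrays, 0.12, 0.07 and 0.32 on p53 arrays, and 0.54, 0.69 and 0.24 on wild-type arrays. Both transgenic genotypes were below 0 on every array and both others above 0. It fell by 0.89 ± 0.17 in BRAF;p53 embryos against wild type (limma adjusted p = 0.0194) and by 0.89 ± 0.17 in BRAF embryos against wild type (limma adjusted p = 0.00906). The BRAF call held whichever array was left out. The BRAF;p53 call held in 8 of 12 such fits and ended without BRAF;p53 replicate 1 or 3 or wild-type replicate 1 or 2, with adjusted p up to 0.0843.

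Probe set 1 of hsp90aa1.2 read -0.32, -0.38 and -0.27 on BRAF;p53 arrays, 0.01, -0.70 and -0.72 on BRAF arrays, 0.08, -0.01 and 0.55 on p53 arrays, and 0.45, 0.74 and 0.24 on wild-type arrays. BRAF replicate 1 was well above the other BRAF arrays here. Expression fell by 0.95 ± 0.21 in BRAF embryos against wild type (limma adjusted p = 0.0216), and by 1.19 without BRAF replicate 1 (limma adjusted p = 0.00332). The call ended without BRAF replicate 2 or 3 or wild-type replicate 1 or 2, with adjusted p up to 0.093. In BRAF;p53 embryos the difference from wild type was -0.80 ± 0.21 (limma adjusted p = 0.0898).

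A further probe set, annotated to hsp90aa1.2 and hsp90aa1.1 together and not counted among the 91, passed no test, at -0.16 in BRAF;p53 embryos and -0.51 in BRAF embryos against wild type (limma adjusted p = 0.851 and 0.142).

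The other Hsp90 genes did not pass. For hsp90aa1.1 the difference from wild type was 0.26 ± 0.26 in BRAF;p53 embryos, with a 95% interval of -0.318 to 0.836, and 0.05 ± 0.26 in BRAF embryos, with an interval of -0.525 to 0.63. Its p53 values were -0.12, -0.62 and 0.73, the last on replicate 3. The constitutive cytosolic gene hsp90ab1 was measured more tightly: the BRAF difference from wild type was 0.06 in 1 probe set, with an interval of -0.149 to 0.267, and -0.09 in the other, with an interval of -0.269 to 0.082. Hsp90 of the ER, from hsp90b1, differed from wild type by -0.07 in BRAF;p53 embryos, with an interval of -0.549 to 0.40, and by 0.26 in BRAF embryos, with an interval of -0.214 to 0.735.

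**Figure D2:**
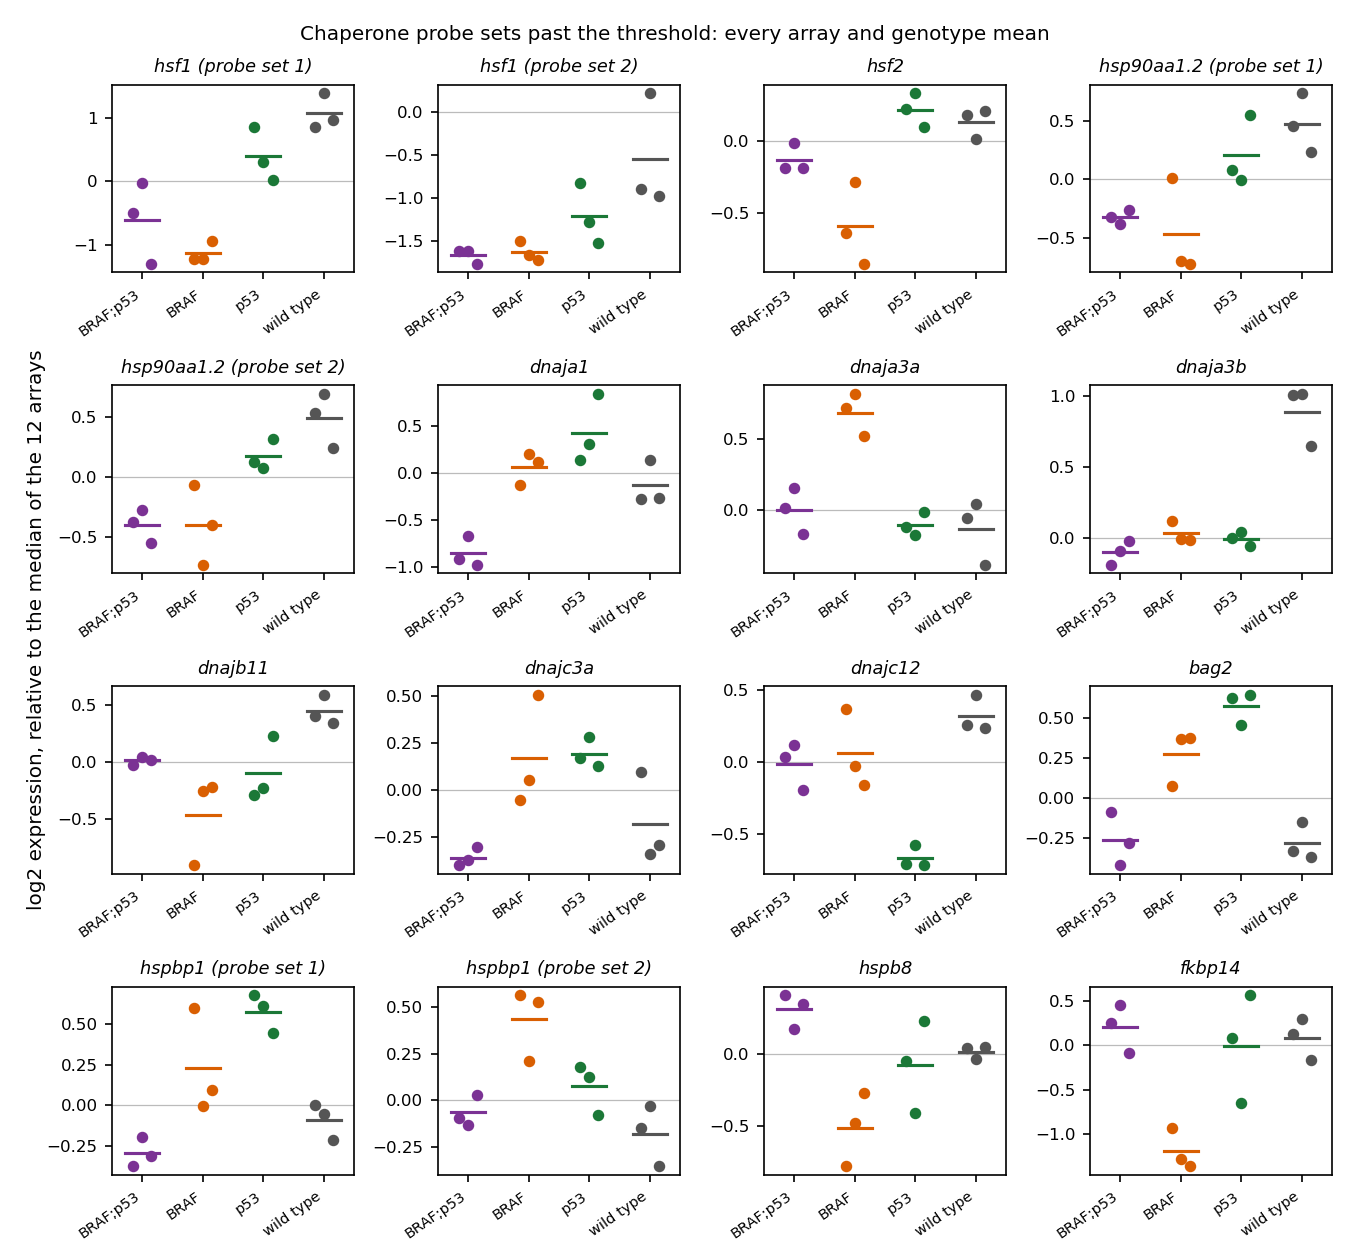
Log2 expression relative to the median of the 12 arrays for the 16 chaperone probe sets past the threshold in at least 1 test. Points are single arrays, horizontal bars are genotype means, and genotypes run BRAF;p53, BRAF, p53, wild type. Both transgenic genotypes lie below wild type for hsf1 and hsp90aa1.2, and wild type alone is high for dnaja3b, at 0.65 to 1.01.

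None of the 12 Hsp70 and Hsp110 probe sets with a single symbol passed a limma test. They differed by -0.56 to 0.40 in the genotype comparisons made, which leave out BRAF against p53. An unadjusted p under 0.05 was found in 9 of 60 pairwise tests, or 15%, against 17.2% over all probe sets in the same contrasts. A probe set that carries several Hsp70 symbols, and so is not among the 91, passed in 1 contrast and is given with hsp70.3 in the next paragraph. The constitutive Hsc70 gene hspa8 read 0.00, -0.06 and 0.06 on BRAF;p53 arrays, -0.03, -0.15 and 0.04 on BRAF arrays, -0.14, 0.00 and 0.21 on p53 arrays, and 0.07, -0.14 and 0.06 on wild-type arrays. Its differences from wild type had 95% intervals of -0.234 to 0.237 in BRAF;p53 embryos, -0.276 to 0.195 in BRAF embryos and -0.206 to 0.265 in p53 embryos. For hspa9, the mitochondrial Hsp70, the BRAF difference from wild type was 0.15 in 1 probe set, with an interval of -0.08 to 0.38, and 0.02 in the other, with an interval of -0.282 to 0.314.

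The heat-induced Hsp70 genes hsp70.1, hsp70l and hsp70.3 were covered by 2 probe sets, and 1 of these probe sets passed a test. The probe set with the single symbol hsp70.3 read -0.54, -0.37 and -0.08 on BRAF;p53 arrays, 0.08, -0.05 and -0.36 on BRAF arrays, 0.39, 0.26 and 0.05 on p53 arrays, and 0.30, 0.18 and -0.11 on wild-type arrays. The first 3 values lay below all p53 values and overlapped those of wild type. The difference was -0.56 ± 0.16 against p53 (limma adjusted p = 0.10) and -0.45 ± 0.16 against wild type (limma adjusted p = 0.224). The probe set annotated to hsp70.1, hsp70l and hsp70.3 together read -0.70, -0.35 and -0.25 on BRAF;p53 arrays, 0.04, 0.00 and 0.03 on BRAF arrays, 0.30, 0.30 and 0.00 on p53 arrays, and 0.11, -0.13 and -0.34 on wild-type arrays. Here too BRAF;p53 arrays were below all p53 arrays and overlapped wild type. It fell by 0.63 ± 0.14 in BRAF;p53 against p53 embryos (limma adjusted p = 0.0427), a call kept in 4 of 12 fits that left out 1 array and lost without BRAF;p53 replicate 1 (limma adjusted p = 0.176). These genes are near copies of each other, so the probe sets cannot be counted as separate results. Another Hsp70 gene, hspa1b, differed by only -0.10 in BRAF;p53 against p53 embryos and passed no test. The inducible J protein gene dnajb1b differed by -0.44 ± 0.16 in BRAF;p53 embryos and by -0.38 ± 0.16 in BRAF embryos against wild type (limma adjusted p = 0.244 and 0.209). Among Hsp110 exchange factors, hspa4l had the smallest F-test p of the subfamily. It was at -0.48 ± 0.12 in BRAF;p53 against p53 embryos, just short of the threshold (limma adjusted p = 0.0547).

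Of 30 J protein probe sets, 6 passed a test, against 11.7% of all probe sets. An unadjusted p under 0.05 was found in 32 of 150 pairwise tests, or 21.3%, against 17.2% over all probe sets. The 6 that passed belong to 6 of the 28 genes and went in different directions. The clearest was dnaja3b, which encodes a mitochondrial J protein. It read -0.19, -0.09 and -0.02 on BRAF;p53 arrays, 0.12, 0.00 and -0.01 on BRAF arrays, 0.00, 0.04 and -0.06 on p53 arrays, and 1.00, 1.01 and 0.65 on wild-type arrays. Wild type alone was high, and the 3 mutant or transgenic genotypes lay within a narrow band. Against wild type it fell by 0.99 ± 0.11 in BRAF;p53 embryos, by 0.85 ± 0.11 in BRAF embryos and by 0.89 ± 0.11 in p53 embryos (limma adjusted p = 0.00067, 0.00082 and 0.00176). All 3 calls held whichever array was left out. They share the same 3 wild-type arrays and so are not independent. The interaction also passed, at 0.76 (limma adjusted p = 0.0216), in 6 of the 12 fits that left out 1 array, and not without wild-type replicate 2 (limma adjusted p = 0.0593). BRAF;p53 embryos differed from p53 embryos by only -0.10 (limma adjusted p = 0.762). A high level in the wild-type line cannot be told apart here from a transgene shift that depends on p53.

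Its paralog dnaja3a, also of the mitochondrial type, was high in BRAF embryos. It read 0.02, 0.16 and -0.17 on BRAF;p53 arrays, 0.72, 0.82 and 0.53 on BRAF arrays, -0.12, -0.18 and -0.02 on p53 arrays, and -0.06, 0.04 and -0.38 on wild-type arrays. Every BRAF array was above every other array. It rose by 0.82 ± 0.13 in BRAF embryos against wild type (limma adjusted p = 0.00337), whichever array was left out, and fell by 0.69 ± 0.13 in BRAF;p53 against BRAF embryos (limma adjusted p = 0.0141). The call against BRAF ended without BRAF;p53 replicate 1 or 3 or BRAF replicate 2, with adjusted p up to 0.0549. The interaction missed the threshold (-0.72 ± 0.18, limma adjusted p = 0.0663).

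In the cytosol, dnaja1 encodes a farnesylated J protein that serves Hsc70, and it was low in BRAF;p53 embryos. It read -0.91, -0.67 and -0.97 on BRAF;p53 arrays, -0.12, 0.20 and 0.12 on BRAF arrays, 0.14, 0.31 and 0.84 on p53 arrays, and -0.27, 0.14 and -0.26 on wild-type arrays. These 3 lowest arrays overlapped no other genotype. It fell by 1.28 ± 0.18 in BRAF;p53 against p53 embryos (2.43-fold lower, limma adjusted p = 0.00359) and by 0.91 ± 0.18 against BRAF embryos (limma adjusted p = 0.018). Against wild type the difference of -0.72 ± 0.18 missed the threshold (limma adjusted p = 0.0797). The interaction was -1.48 ± 0.26 (limma adjusted p = 0.0111), and it held whichever array was left out, as did the call against p53. The call against BRAF ended without BRAF;p53 replicate 1 or 3 or BRAF replicate 2, with adjusted p up to 0.078. Without p53 replicate 3, the highest array, the difference from p53 was -1.08 (limma adjusted p = 0.00464).

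Low expression in p53 embryos marked dnajc12, whose product in human binds the aromatic amino acid hydroxylases. It read 0.03, 0.12 and -0.20 on BRAF;p53 arrays, 0.37, -0.03 and -0.16 on BRAF arrays, -0.71, -0.58 and -0.72 on p53 arrays, and 0.26, 0.47 and 0.24 on wild-type arrays. The 3 p53 arrays were below all others. It fell by 0.99 ± 0.14 in p53 embryos against wild type (limma adjusted p = 0.00452), whichever array was left out. In BRAF;p53 against p53 embryos it rose by 0.66 ± 0.14 (limma adjusted p = 0.0298), in 7 of 12 fits that left out 1 array. It missed the threshold without BRAF;p53 replicate 1 or 2 or any 1 of the p53 arrays, with adjusted p up to 0.134. The interaction was 0.92 ± 0.20 (limma adjusted p = 0.0304) and held in 3 of 12 such fits.

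Of the ER J protein genes, dnajb11 and dnajc3a passed a test. The BiP partner gene dnajb11 read -0.02, 0.05 and 0.02 on BRAF;p53 arrays, -0.90, -0.26 and -0.22 on BRAF arrays, -0.29, -0.23 and 0.22 on p53 arrays, and 0.40, 0.59 and 0.34 on wild-type arrays. Wild type was above all the others, and the lowest value was on BRAF replicate 1. It fell by 0.90 ± 0.18 in BRAF embryos against wild type (limma adjusted p = 0.0135), and by 0.68 without BRAF replicate 1 (limma adjusted p = 0.0186). The call ended only without wild-type replicate 2 (limma adjusted p = 0.0597). The other gene, dnajc3a, whose product restrains the kinase PERK, read -0.40, -0.38 and -0.31 on BRAF;p53 arrays, -0.05, 0.05 and 0.51 on BRAF arrays, 0.17, 0.28 and 0.13 on p53 arrays, and 0.10, -0.34 and -0.30 on wild-type arrays. It passed the interaction alone, at -0.90 ± 0.22 (limma adjusted p = 0.0471), and 3 of 12 fits that left out 1 array kept that call. The other 22 J protein genes passed no test.

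Of the Hsp70 exchange factors, bag2 and hspbp1 passed tests. The gene bag2 encodes a cochaperone that releases nucleotide from Hsp70 and, in human cells, restrains the ubiquitin ligase CHIP. It read -0.08, -0.42 and -0.28 on BRAF;p53 arrays, 0.08, 0.37 and 0.38 on BRAF arrays, 0.63, 0.46 and 0.65 on p53 arrays, and -0.33, -0.15 and -0.37 on wild-type arrays. BRAF and p53 arrays were all above 0, and the other 6 all below. Against wild type it rose by 0.56 ± 0.12 in BRAF embryos (limma adjusted p = 0.0181) and by 0.86 ± 0.12 in p53 embryos (limma adjusted p = 0.00452). BRAF;p53 embryos were at 0.02 ± 0.12 against wild type (95% interval -0.242 to 0.284). They differed by -0.84 ± 0.12 from p53 embryos and by -0.54 ± 0.12 from BRAF embryos (limma adjusted p = 0.00353 and 0.0291).

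The interaction of bag2 was -1.40 ± 0.17 (limma adjusted p = 0.00121), and it held whichever array was left out, as did the calls for p53 against wild type and BRAF;p53 against p53. The BRAF call against wild type ended without BRAF replicate 2 or 3 or wild-type replicate 1 or 3, with adjusted p up to 0.0704. The BRAF;p53 call against BRAF ended without BRAF replicate 2 or 3 or BRAF;p53 replicate 2 or 3, with adjusted p up to 0.135. No probe set of the other BAG genes present (bag4, bag5 and bag6) passed.

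The gene hspbp1 encodes another exchange factor that opens the Hsp70 nucleotide site. Its probe set 1 read -0.37, -0.19 and -0.31 on BRAF;p53 arrays, 0.60, 0.00 and 0.09 on BRAF arrays, 0.68, 0.61 and 0.44 on p53 arrays, and 0.00, -0.05 and -0.21 on wild-type arrays. The p53 arrays were above those of BRAF;p53 and wild type, while the BRAF arrays spread widely with replicate 1 on top. It rose by 0.67 ± 0.15 in p53 embryos against wild type (limma adjusted p = 0.047, kept in 3 of 12 fits that left out 1 array) and fell by 0.87 ± 0.15 in BRAF;p53 against p53 embryos (limma adjusted p = 0.00887, kept in 11). The interaction was -1.19 ± 0.21 (limma adjusted p = 0.0105), whichever array was left out.

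Probe set 2 of hspbp1 read -0.09, -0.13 and 0.03 on BRAF;p53 arrays, 0.56, 0.21 and 0.53 on BRAF arrays, 0.18, 0.13 and -0.08 on p53 arrays, and -0.15, -0.03 and -0.35 on wild-type arrays. Here the BRAF arrays were the highest, unlike in probe set 1. It rose by 0.61 ± 0.12 in BRAF embryos against wild type (limma adjusted p = 0.0129), a call lost only without wild-type replicate 3 (limma adjusted p = 0.0541). It fell by 0.50 ± 0.12 in BRAF;p53 against BRAF embryos (limma adjusted p = 0.0445), in 4 of 12 fits that left out 1 array and not without BRAF replicate 1 (limma adjusted p = 0.105). The interaction was -0.75 ± 0.17 (limma adjusted p = 0.0426), in 2 of 12 such fits. The probe sets thus shared the sign of the interaction and differed in which genotype was highest.

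Across the 91 probe sets, the transgene shift with p53 intact (BRAF against wild type) and without p53 function (BRAF;p53 against p53) had the same sign in 48. These contrasts use separate arrays, and their correlation across probe sets, which are not independent replicates, was 0.111. In the lower left of the plot of the shifts lie hsf1 and hsp90aa1.2, which passed with p53 intact and not without p53 function. For BRAF;p53 against p53 the probe sets 1 and 2 of hsp90aa1.2 differed by -0.53 and -0.57 (limma adjusted p = 0.248 and 0.108), with arrays that did not overlap. Their interactions were 0.42 and 0.32 (limma adjusted p = 0.477 and 0.495). A dependence on p53 function was thus not shown for hsp90aa1.2, nor for hsf1. The interaction passed for 7 probe sets of 6 genes: bag2, dnaja1, dnajc3a and hspbp1 with a negative sign (5 probe sets), and dnaja3b and dnajc12 with a positive one.

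**Figure D3:**
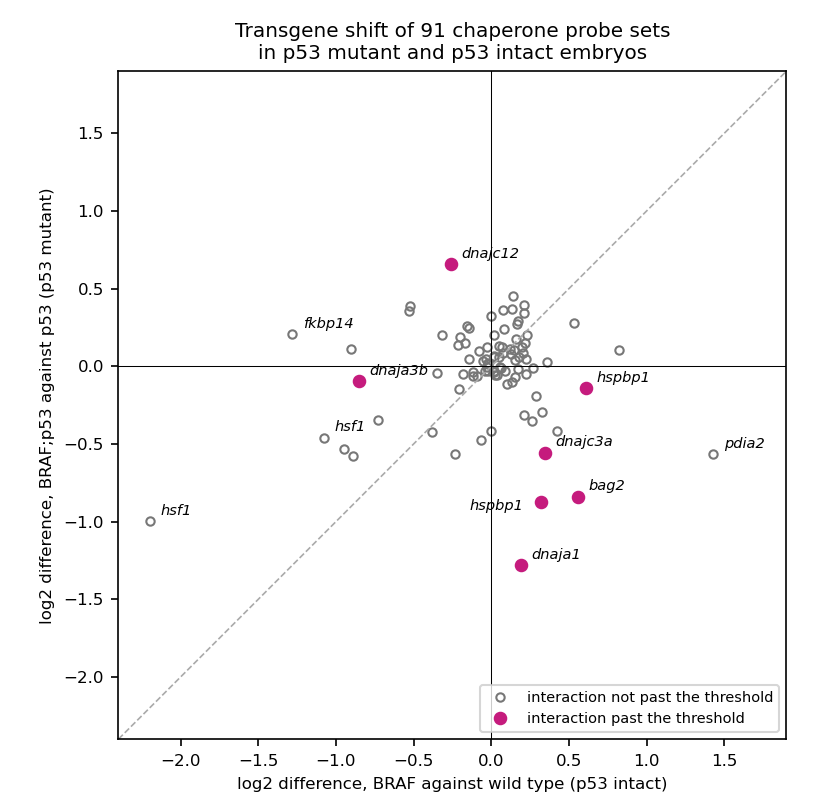
Transgene shift of each of the 91 chaperone probe sets on the log2 scale: BRAF against wild type on the horizontal axis and BRAF;p53 against p53 on the vertical axis, with the dashed line marking equal shifts. Filled points passed the interaction test. On the axes bag2 lies at 0.56 and -0.84, dnaja1 at 0.19 and -1.28, and hsf1 probe set 1 at -2.20 and -0.997.

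Of the small heat shock genes and the FK506-binding prolyl isomerases, 1 gene each passed, hspb8 and fkbp14. These are 1 of 3 and 1 of 10 probe sets, against 11.7% of all probe sets. The gene fkbp14 encodes an ER isomerase of collagen folding. It read 0.26, 0.45 and -0.09 on BRAF;p53 arrays, -0.93, -1.29 and -1.36 on BRAF arrays, 0.08, -0.65 and 0.57 on p53 arrays, and 0.13, 0.30 and -0.17 on wild-type arrays. The BRAF arrays were below all others, and p53 arrays spread the most. It fell by 1.28 ± 0.27 in BRAF embryos against wild type (2.43-fold lower, limma adjusted p = 0.0156) and rose by 1.40 ± 0.27 in BRAF;p53 against BRAF embryos (2.64-fold higher, limma adjusted p = 0.0141). The BRAF call ended without BRAF replicate 2 or 3 or wild-type replicate 1 or 2, with adjusted p up to 0.0681. The call against BRAF ended without BRAF;p53 replicate 1 or 2, with adjusted p up to 0.069. The interaction missed the threshold (1.49 ± 0.38, limma adjusted p = 0.0626). The other 8 FKBP genes did not pass any test.

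For hspb8, a small heat shock protein that works with Bag3 in selective autophagy, the values were 0.40, 0.17 and 0.34 on BRAF;p53 arrays, -0.78, -0.48 and -0.28 on BRAF arrays, -0.05, -0.41 and 0.22 on p53 arrays, and 0.04, -0.04 and 0.04 on wild-type arrays. BRAF;p53 arrays were all above wild type and BRAF arrays all below it. The difference between BRAF;p53 and BRAF embryos was 0.82 ± 0.16 (limma adjusted p = 0.0172), and it ended without BRAF;p53 replicate 1 or 3, with adjusted p up to 0.0786. Against wild type, neither 0.29 in BRAF;p53 embryos nor -0.53 in BRAF embryos passed (limma adjusted p = 0.521 and 0.0879). The Hsp27 gene hspb1 read 0.13, 0.37 and 0.16 on BRAF;p53 arrays against -0.05, 0.02 and -0.13 on wild-type arrays, which did not overlap, and the 0.27 ± 0.11 by which they differed missed the threshold (limma adjusted p = 0.285).

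The chaperonins passed no test. CCT, the chaperonin that folds actin and tubulin, had 8 probe sets. Outside BRAF against p53, which was not compared, they differed between genotypes by -0.36 to 0.35. None passed a limma test, and 1 of 40 pairwise tests had an unadjusted p under 0.05, or 2.5%, against 17.2% over all probe sets. All 8 were above 0 on BRAF replicate 1, where 6 of them had their highest value. Their mean was 0.272 on that array and -0.108 to 0.019 on the other 11. That array was high beyond CCT: its median was 0.0812 over all probe sets and 0.1352 over the 91 chaperone probe sets, the highest of the 12 arrays in both, and all 4 BAG probe sets were above 0 there as well. The part of this shift in the CCT values was not tested. For the mitochondrial chaperonin, hspd1 (Hsp60) and hspe1 (Hsp10) differed between genotypes by -0.16 to 0.12, again outside BRAF against p53. These genes passed no limma test, and 0 of 10 pairwise tests had an unadjusted p under 0.05. BRAF differed from wild type by 0.12 for hspd1, with a 95% interval of -0.071 to 0.318, and by -0.03 for hspe1, with an interval of -0.206 to 0.137.

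Protein disulfide isomerases, which make and rearrange disulfide bonds in the ER, passed no limma test among 9 probe sets. An unadjusted p under 0.05 was found in 8 of 45 pairwise tests, or 17.8%, close to the 17.2% over all probe sets. The values of pdia2 spread widely, and its human counterpart is an isomerase of the exocrine pancreas. It read -0.46, -0.38 and 0.33 on BRAF;p53 arrays, -0.53, 1.47 and 1.82 on BRAF arrays, -0.04, 1.19 and 0.04 on p53 arrays, and -0.07, -1.61 and 0.16 on wild-type arrays. The genotypes overlapped, and BRAF embryos stood 1.43 ± 0.62 above wild type, which missed the threshold (limma adjusted p = 0.219). Digestive enzyme markers of the exocrine pancreas varied between arrays of the same genotype too. The mean of their 14 probe sets was -1.66, -1.29 and -1.02 on BRAF;p53 arrays, -0.31, 1.36 and 1.31 on BRAF arrays, 0.73, 1.64 and -1.63 on p53 arrays, and 0.71, -1.96 and 0.18 on wild-type arrays. Every BRAF;p53 array was below every BRAF array. Between these genotypes 10 of the 14 had an unadjusted limma p under 0.05, against 3416 of all 15502 probe sets. None of the 14 passed the adjusted threshold there. High pdia2 on BRAF replicates 2 and 3 and p53 replicate 2 and low pdia2 on wild-type replicate 2 went with those markers. Other arrays did not follow: markers were low on BRAF;p53 replicate 3 and p53 replicate 3, where pdia2 was 0.33 and 0.04, and above 0 on p53 replicate 1 and wild-type replicate 1, where pdia2 was -0.04 and -0.07. The part of pancreas RNA in the pdia2 values was not tested.

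The mean of the 9 isomerase probe sets, pdia2 among them, was -0.08, 0.02 and 0.03 on BRAF;p53 arrays, 0.16, 0.16 and 0.35 on BRAF arrays, -0.18, 0.07 and 0.28 on p53 arrays, and -0.12, -0.15 and -0.09 on wild-type arrays. These means carry the wide spread of pdia2, from -1.61 on wild-type replicate 2 to 1.82 on BRAF replicate 3. A mean without pdia2 was not computed, so a shift of the isomerases as a family was not shown. For some genes of the ER, differences from wild type in BRAF embryos were 0.27 for hspa5, which encodes BiP (95% interval -0.021 to 0.564), 0.42 for pdia3 (0.023 to 0.823) and 0.21 for pdia4 (-0.292 to 0.711), none past the threshold. Other ER genes were lower in that contrast: dnajb11 differed by -0.90 and fkbp14 by -1.28, both past the threshold. The smallest F-test p among the isomerases was that of 1 probe set of pdia7 (limma adjusted p = 0.0882).

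**Figure D4:**
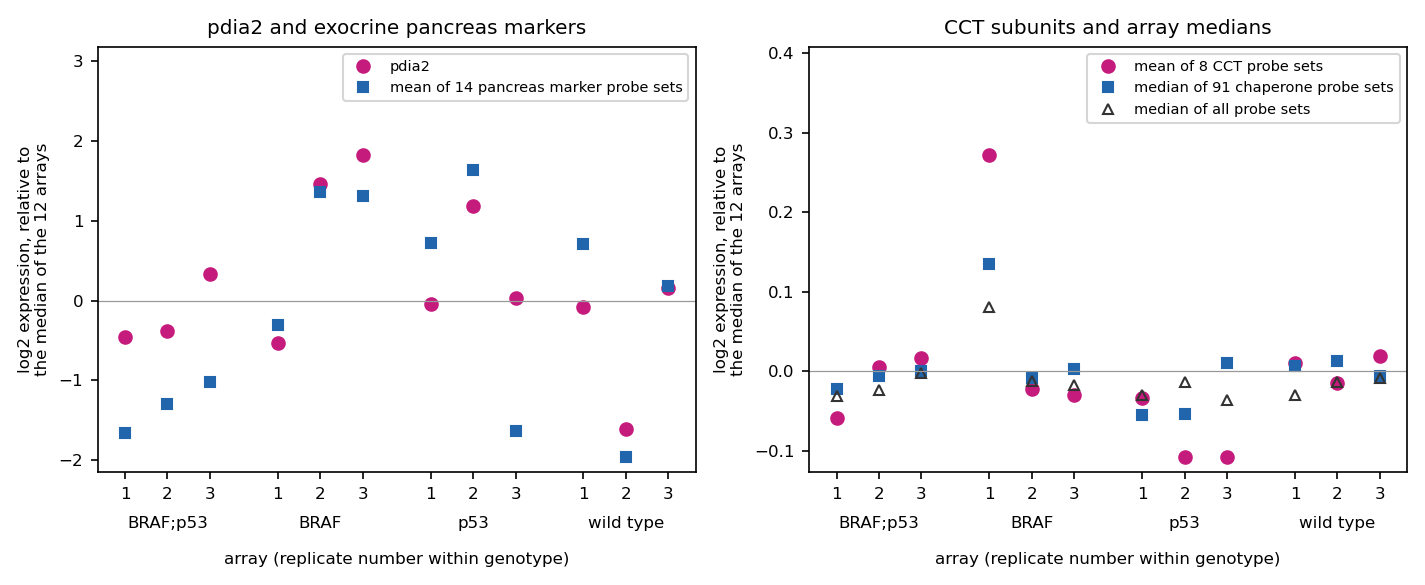
Left, log2 expression of pdia2 and the mean of 14 exocrine pancreas marker probe sets on each of the 12 arrays. Right, the mean of 8 CCT probe sets, the median of the 91 chaperone probe sets and the median of all probe sets on each array. On BRAF replicate 1 the CCT mean reaches 0.272, with medians of 0.1352 for the chaperones and 0.0812 for all probe sets.

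Skeletal muscle and melanophore markers were steadier between arrays of a genotype than pancreas markers, muscle the more so. The mean of 20 skeletal muscle probe sets, a tissue rich in Hsp90 and small heat shock proteins, lay between -0.052 and 0.005 on BRAF;p53 arrays, 0.021 and 0.062 on BRAF arrays, -0.111 and 0.066 on p53 arrays, and -0.014 and 0.095 on wild-type arrays. Of the 20, 1 passed as higher in BRAF embryos against wild type, where 3.19% of all probe sets did. In p53 embryos 1 passed as lower against wild type, with 1.08% of all. The mean of 4 melanophore probe sets lay between 0.187 and 0.304 on BRAF;p53 arrays, -0.319 and 0.271 on BRAF arrays, -0.94 and 0.046 on p53 arrays, and -0.362 and 0.01 on wild-type arrays. Of these 4, 1 passed as higher in BRAF;p53 against p53 embryos, where 1.5% of all probe sets did. Against BRAF embryos 1 also passed as higher, with 2.03% of all probe sets. Because values are centred, these markers show differences between arrays and not whether a tissue was present.

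Cochaperones outside the symbol rule were followed in 3 lists. Of 26 probe sets of 23 genes for other cytosolic chaperones and cochaperones, 1 rose and 2 fell in BRAF embryos against wild type. Over all probe sets 3.19% rose and 3.22% fell in that contrast. None of the 26 passed in BRAF;p53 or p53 embryos against wild type, where 5 and 4 had an unadjusted p under 0.05. Those are 19.2% and 15.4% of the 26, against 13% and 14.3% of all probe sets. The Hsp90 activator gene ahsa1a rose by 1.02 ± 0.27 (limma adjusted p = 0.0459), kept in 2 of 12 fits that left out 1 array. Its means were 0.26 in BRAF;p53, 0.20 in BRAF, 0.08 in p53 and -0.82 in wild-type embryos. Wild type alone was low, so the difference was not particular to BRAF embryos. The p23 gene ptges3a, whose product locks Hsp90 in its closed state, fell by 0.50 ± 0.12 (limma adjusted p = 0.0321), kept in 5 of 12. The lens small heat shock gene cryaa fell by 1.61 ± 0.12 (limma adjusted p = 2.82e-05). The mean of 4 lens probe sets, cryaa among them, was -0.444 to -0.352 on BRAF arrays, against 0.019 to 0.186 on wild-type arrays, and cryaa carried most of that gap. Without cryaa the mean of the other 3 (crybb1, cryba4 and bfsp2) was -0.152 to -0.081 on BRAF arrays. Wild-type arrays, at -0.047 to 0.104, did not overlap with these. All 4 lens probe sets were lower in BRAF than in wild-type embryos, and cryaa alone of them passed the limma test. The crystallin gene cryaba of the cytosolic list went the other way without passing, with means of -0.30 in BRAF and -0.57 in wild-type embryos. In BRAF;p53 against BRAF embryos cryaa rose by 1.40 ± 0.12 (limma adjusted p = 0.000172). The part of lens RNA in the cryaa values was not tested.

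Of 31 probe sets of 21 genes for ER folding and the unfolded protein response, 2 fell in BRAF embryos against wild type, where 3.22% of all probe sets fell. Both belong to txndc5, an ER disulfide isomerase, and fell by 0.65 ± 0.15 and 0.85 ± 0.20 (limma adjusted p = 0.0265 and 0.0299), while its other 4 probe sets did not pass in that contrast. A further txndc5 probe set rose by 0.57 ± 0.12 in BRAF;p53 against p53 embryos (limma adjusted p = 0.0251). In BRAF;p53 against BRAF embryos, xbp1, the transcription factor of the unfolded protein response, fell by 0.63 ± 0.11 (limma adjusted p = 0.00996), whichever array was left out, and herpud1, a gene of ER-associated degradation, fell by 0.45 ± 0.10 (limma adjusted p = 0.0272), kept in 7 of 12 such fits. The 14 exocrine pancreas probe sets had a median difference of -1.97 in that contrast. The part of pancreas RNA in the xbp1 and herpud1 values was not tested. Of 11 probe sets of 7 genes for mitochondrial chaperones and proteases, 1 probe set of grpel2, the exchange factor of mitochondrial Hsp70, passed. It fell by 0.57 ± 0.12 in BRAF embryos and by 0.70 ± 0.12 in p53 embryos against wild type (limma adjusted p = 0.0142 and 0.0138), and the other grpel2 probe set passed in neither. Over all probe sets 3.22% and 1.08% fell in these contrasts.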

How the data were processed

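Total RNA, extracted with Trizol per the labels' protocols, was measured on 12 Affymetrix zebrafish arrays. The deposited values are log2 expression, which the authors computed with GCRMA (version not given), per the submitters' processing notes. How they were centred is not stated and was read from the values. As linear values, 13937 of the 15617 probe sets, and 89 of the 91 chaperone probe sets, had a median of 1 across arrays (tolerance 0.0001), and the other 1680 a lower one. Brightness and signal over background are therefore unknown, also for the chaperones, and the 12 arrays set the precision. Array medians ran from -0.0365 to 0.0812. The transcript of the mutated gene was not used to check the labels.

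Genotypes came from the labels. The platform annotation gave 10795 probe sets exactly 1 symbol, and all 91 chaperone symbols were found in the RefSeq gene table. Another 3 probe sets that met the symbol rule carried several symbols and were not counted. Of the chaperone genes, 11 had several probe sets (23 in all), and each was tested on its own. No genome coordinates or sequences were used.

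All 15502 probe sets other than 115 controls were fitted with lmFit and eBayes of limma 3.58.1 under R 4.3.3, with 1 mean per genotype, no block and no filter, after the code was tested on simulated data. Two-sided p-values were adjusted by Benjamini-Hochberg over all of them for each of 5 pairwise contrasts, the interaction and a moderated F test. Intervals are 95% and not adjusted. The alternatives tried were a replicate block, quantile normalization, array medians set to 0, trend and robust options of eBayes, the mean of p53 samples 1a and 1b, fits to only the genotypes compared, only probe sets with a median of 1, and each array left out. Named genes were every chaperone past a test, the smallest F-test p of each subfamily and a list of well-known chaperones, of which hsp70l, hsp70.1, hsp70.2 and bag3 had no probe set of their own among those analysed here. The chaperones and the lists (other cytosolic chaperones, ER folding, mitochondrial chaperones, exocrine pancreas, skeletal muscle, lens, melanophores) were chosen with earlier results of these data known. Figures were drawn with matplotlib 3.10.9 and tables made with pandas 2.3.3 and numpy 2.4.6 in Python 3.11.15.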

Additional observations from a re-analysis of the deposited data

Results flagged for a closer look

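The transgene shift differed between embryos with and without p53 function, by the limma interaction test at an adjusted p of 0.05, for 7 chaperone probe sets and 3 probe sets of the pathway lists. Over all probe sets 3.21% passed that test. On the log2 scale the interaction was -1.40 for bag2, -1.48 for dnaja1, -0.90 for dnajc3a, and -1.19 and -0.75 for the probe sets of hspbp1. It was 0.76 for dnaja3b and 0.92 for dnajc12. Outside the chaperones chosen by symbol it was 1.92 for cryaa (limma adjusted p = 0.000218), 0.95 for grpel2 (limma adjusted p = 0.0108) and 1.46 for the p23 gene ptges3b (limma adjusted p = 0.0362). A positive value means that the difference between BRAF;p53 and p53 embryos was above that between BRAF and wild-type embryos. The bag2, dnaja1, cryaa and grpel2 values and probe set 1 of hspbp1 passed whichever array was left out. The value of ptges3b passed in 5 of 12 such fits, and leaving out BRAF;p53 replicate 2 gave 0.0898. Groups of 3 arrays are too small for a test of single outlying arrays.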

How the results depend on the processing

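Of the 49 tests passed by named genes, direction was kept in every alternative in which the test was run. The threshold was passed in 46 of 49 after quantile normalization and after centring of array medians, 41 of 49 with trend and robust settings, 44 of 49 with the replicate block, 40 of 49 with p53 samples 1a and 1b averaged, 24 of 39 when only the genotypes compared were fitted, 48 of 48 among probe sets with a median of 1, and 442 of 588 fits that left out 1 array. Without BRAF replicate 1 and p53 replicate 3, left out together after seeing the data, it was 48 of 49, the exception being BRAF;p53 against BRAF for hspbp1 probe set 2 (limma adjusted p = 0.0653). The counts of chaperone probe sets that moved by over 1.5 times were as follows. For BRAF;p53 against wild type the count of 3 became 6 after quantile normalization (6.59%, with 4.99% of all), 6 with only these genotypes and 8 without the 2 arrays. For BRAF against wild type 11 became 4 with only these genotypes, and it was 15 without the 2 arrays. For BRAF;p53 against p53 the count of 4 became 9 without the 2 arrays. For the interaction 7 became 3 with trend and robust settings (3.3%, with 2.43% of all) and 4 with 1a and 1b averaged (4.4%, with 2.01% of all). It became 17 without the 2 arrays. With 1 array left out at a time the counts ran from 1 to 4 for BRAF;p53 against wild type, 7 to 12 for BRAF against wild type, 3 to 4 for p53 against wild type, 2 to 7 for BRAF;p53 against p53, 1 to 6 for BRAF;p53 against BRAF, 3 to 10 for the interaction and 10 to 16 for the F test. For p53 against wild type that range is 3.3% to 4.4% of the chaperone probe sets, with 1.04% to 3.01% of all. For the F test it is 11% to 17.6%, with 6.34% to 11.3% of all. The cause of the changes in these counts was not tested. Fits that left out arrays also rested on fewer arrays, and some of their counts rose while others fell. Over all probe sets, the 302 calls of BRAF;p53 against wild type became 774 after quantile normalization and 836 with only these genotypes, the 993 of BRAF against wild type became 598 with only these genotypes, the 284 of p53 against wild type became 105 with only these genotypes and 156 with 1a and 1b averaged, and the 456 of BRAF;p53 against p53 became 697 after quantile normalization and 254 with 1a and 1b averaged. The 497 interaction calls became 312 with 1a and 1b averaged and 1469 without the 2 arrays.

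Whether replicate numbers pair the samples could not be settled from 3 arrays per genotype. After each genotype mean was subtracted, same-numbered arrays of different genotypes correlated at -0.323 to 0.363, with 7 of 18 pairs over 0.1. Arrays with different numbers correlated at -0.39 to 0.305. In 14 of 36 cases an array correlated best with its own number in another genotype. With the replicate block 3, 11 and 4 chaperone probe sets passed for BRAF;p53, BRAF and p53 against wild type (3.3%, 12.1% and 4.4%, with 2.12%, 6.42% and 2.04% of all). For BRAF;p53 the counts were 5 against p53 (5.49%, with 2.74% of all) and 4 against BRAF (4.4%, just below the 4.53% of all). In the main fit the share against BRAF was above that of all probe sets (6.59% against 4.5%). With the block the interaction passed for 7 (7.69%, with 3.1% of all) and the F test for 12 (13.2%, with 9.47% of all). A pseudocount or a filter on low values was not run, since centred log2 values allow neither. Signal over background is unknown, so how it limits single probe sets could not be assessed.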
